A study of Mus musculus with 12 samples.

Results

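Hearts of mice lacking Trex1 were compared by the number of intact STING alleles: 2 arrays labelled Trex1 KO, STING +/- were set against 2 arrays labelled Trex1 KO, STING +/+. These 4 of the 12 samples of the series were chosen by their genotype labels alone. The comparison asks which transcript programs keep their level, which drop to about 50% and which are lost when 1 of the 2 STING alleles is missing. All mice were untreated and of a mixed C57BL6/129Sv background, and the sources used here do not give their age. The other groups, with 2 arrays each, were Trex1 KO, STING -/-, then Trex1 WT, STING +/-, then Trex1 WT, STING +/+, and Trex1 WT, STING -/-. The alleles are given only as + or - for the mouse, with no cell type or promoter named, and the sources used here do not say how they were made. No label states that both arrays of a group come from different mice, so the p-values below measure the spread between these samples, which may in part be technical. Total RNA was hybridised to Illumina bead arrays with 45281 probes, and 15561 features (the brightest probe of a gene, or a probe without a gene symbol) were tested. Array signals are given on a log2 scale after background correction and quantile normalisation. A level is also given as the linear signal in STING +/- hearts as a percent of that in STING +/+ hearts. Differences are STING +/- minus STING +/+, with the standard error of the fit (n = 2 each) after the ± sign. Unless Trex1 WT is named, STING -/-, STING +/- and STING +/+ below stand for Trex1 KO hearts of that STING genotype.

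TREX1 is an exonuclease that degrades DNA in the cytosol. When it is missing, self DNA is sensed by cGAS, whose second messenger cGAMP activates the adaptor STING on the endoplasmic reticulum. STING recruits the kinase TBK1 and the transcription factor IRF3, which induce type I interferon. Interferon acts through its receptor and a transcription factor complex that holds STAT2 and IRF9 on genes that carry an interferon-stimulated response element. Interferon gamma, made by T cells and NK cells, drives MHC class II genes through the regulator CIITA. Mice without Trex1 develop an inflammatory myocarditis.

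The targeted genes were read first. Trex1 probe ILMN_3131766 read 5.55 and 5.65 on the STING +/- arrays, 5.60 and 6.76 on the STING +/+ arrays, and 6.53 to 7.34 in the 6 Trex1 WT hearts. Inside the Trex1 WT range thus lay the array labelled Trex1 KO, STING +/+ replicate 2. The same held for Trex1 probe ILMN_2509737, at 7.84 on that array and 7.37 to 8.16 on the Trex1 WT arrays. In STING -/- hearts probe ILMN_3131766 read 5.38 and 5.68, and ILMN_2509737 read 6.80 and 6.87. Every Trex1 KO array except STING +/+ replicate 2 thus lay below the Trex1 WT range on both probes. The closest was STING +/- replicate 2, at 7.30 on ILMN_2509737. The sources used here do not place these probes inside or outside the deletion, and the genotype of STING +/+ replicate 2 was not tested. Sting1, which encodes STING, read 4.72 and 5.02 in STING -/- hearts, 5.75 and 5.05 in STING +/- hearts and 7.03 and 6.94 in STING +/+ hearts. Its STING +/+ arrays were the highest, and STING +/- replicate 2 lay near the STING -/- arrays. In Trex1 WT hearts Sting1 read 4.82 and 4.67 with STING -/-, 4.79 and 5.24 with STING +/- and 5.71 and 5.15 with STING +/+. There STING +/- and STING +/+ overlapped, near the lowest detected signals of 4.83 to 5.13, so the probe does not count alleles. Groups here follow 3 labels, which are title, source and genotype. Another, the description, instead gives STING +/+ for both STING +/- samples and STING -/- for both STING +/+ samples, and every direction below takes the arrays as those 3 labels name them.

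Single arrays stood apart in other features too. Xist read 8.93 on STING +/+ replicate 2 and 4.34 to 4.86 on the other 3 arrays compared, and the Y-linked Eif2s3y read 4.35 there and 9.79 to 10.18 on the others, so 1 of the 4 hearts was female and the STING +/+ arrays came from different mice. Hnrnpa2b1, which encodes an RNA-binding protein, read 5.91 on that array and 10.91 to 11.41 on the other 3. It was also low, at 8.47, on Trex1 WT, STING +/- replicate 1, against 11.48 to 11.63 on the remaining arrays of the series. Hnrnpa2b1 was chosen after its values were seen. The heart label was checked with sarcomere genes, of which 24, 25, 23 and 23 of 25 were detected on the STING +/- and then the STING +/+ arrays, and with Myh6, the myosin of adult heart muscle, which read 13.27 to 14.94 on the 4 arrays. The mean of 9 measured liver transcripts was 9.34 and 6.05 in STING +/- hearts, against 5.04 and 7.01 in STING +/+ hearts, and the part of liver RNA in the results was not tested. Both STING +/+ arrays differed by over 1 on the log2 scale in 2254 features, both STING +/- arrays in 485, and the pairs of the other 4 groups in 302 to 692. The arrays detected 38.3% to 44.7% of probes. The lowest detected signal was 4.84 and 5.00 on STING +/- replicates 1 and 2. Some genes below read under it on replicate 2 alone, such as Cd6, Ifi211, Rgs1, Slpi and Tnf. Their differences are in part ratios to background.

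Across all features, 1713 (11.0%) passed an adjusted p of 0.05 between STING +/- and STING +/+ hearts (limma with Benjamini-Hochberg adjustment). Of these, 662 (4.25%) were higher and 1051 (6.75%) lower with 1 STING allele. The words "rose" and "fell" below mean past this threshold. Counts of rises and falls in a list are to be read against these shares of all features. The test pools the spread of all 6 groups, and a fit of the 4 compared arrays alone called 6 features, all lower, with 2630 at an unadjusted p under 0.05. Leaving out STING +/- replicate 2 left 266 features past the threshold, and leaving out STING +/- replicate 1 left 1021. Leaving out STING +/+ replicate 2, the female heart, left 1010, while leaving out STING +/+ replicate 1 gave 4102. Of the features past the threshold, 63 higher and 186 lower ones passed without each of the 4 arrays in turn, and a gene among them is called stable below. By level, 107 (0.688%) features stood under 18% of their STING +/+ level, 386 (2.48%) at 18% to 35%, 2450 (15.7%) at 35% to 71%, 9886 (63.5%) at 71% to 141% and 2732 (17.6%) above 141%. Of 12187 features detected on both STING +/+ arrays, 372 (3.05%) were detected on 0 of 2 STING +/- arrays. In the other direction, 234 (1.92%) of 12198 features detected on both STING +/- arrays were detected on 0 of 2 STING +/+ arrays. The groups did not overlap in 49.6% of all features. The 15 largest falls and rises named below were taken only from such features, so for them the lack of overlap is a condition of the choice.

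**Figure D1:**
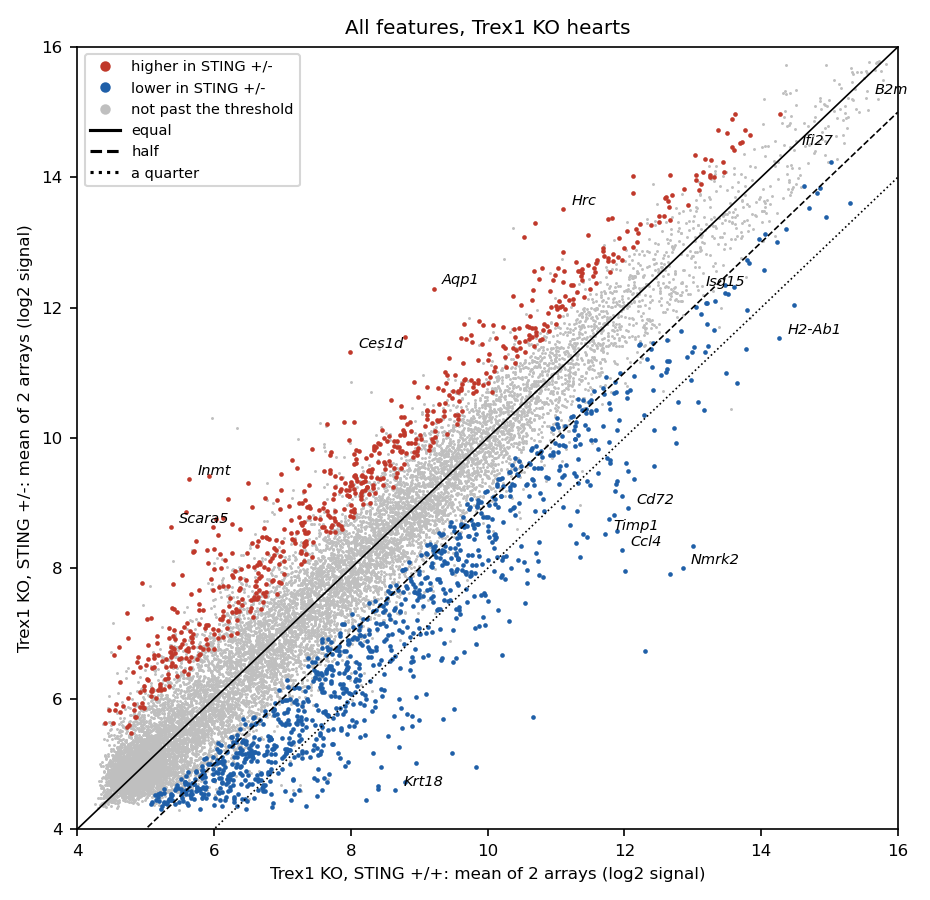
Mean log2 signal of each of 15561 features in Trex1 KO, STING +/- hearts (vertical axis, 2 arrays) against Trex1 KO, STING +/+ hearts (horizontal axis, 2 arrays); blue points are the 1051 features lower and red points the 662 higher with 1 STING allele, and the solid, dashed and dotted lines mark an equal level, 50% and 25% of it. Nmrk2 and Krt18, at 3.46% and 6.04% of the STING +/+ level, lie below the dotted line, and Ifi27, at 96.5%, lies by the solid line. Krt18 was detected on no STING +/- array, so its percent is a ratio to background.

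The interferon-stimulated genes, the direct antiviral response to interferon, had a median level of about 50% with 1 STING allele, which moved with single arrays. Of 50 measured, 16 fell and 0 rose in STING +/- hearts, with a median difference of -1.05, against 0.00 over all features, and a median level of 48.1%. None stood under 18%, while 8 stood at 18% to 35%, 33 at 35% to 71% and 9 at 71% to 141%. The median difference was -1.48 without STING +/- replicate 1 and -0.55 without STING +/- replicate 2. In whole tissue, fewer cells of a type and less RNA per cell cannot be told apart. In 33 of the 50 genes both STING +/- arrays lay below both STING +/+ arrays, which held for 24.8% of all features, while 49.6% of all features had groups that did not overlap in either direction. The mean log2 signal of the list was 6.48 and 6.47 in STING -/- hearts, 9.43 and 8.55 in STING +/- hearts and 10.14 and 9.80 in STING +/+ hearts. STING -/- hearts were thus the lowest and STING +/+ hearts the highest, and STING +/- replicate 1 stood nearer to STING +/+ hearts than replicate 2 did. The number that fell was 8 without STING +/+ replicate 2, 22 without STING +/- replicate 1 and 1 without STING +/- replicate 2, and Ifi47 was stable.

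At the low end of the list, Isg20, an exonuclease of single-stranded nucleic acid, read 6.69 and 6.24 in STING +/- hearts, against 8.30 and 9.14 in STING +/+ hearts. It fell by 2.25 ± 0.34 (adjusted p = 0.00449), to 21% of its STING +/+ level. Ifi47, an interferon-inducible GTPase, read 10.05 and 8.63 in STING +/- hearts, against 11.57 and 11.34 in STING +/+ hearts. It fell by 2.11 ± 0.38 (adjusted p = 0.00869). Oas1g, an oligoadenylate synthetase of the family that senses double-stranded RNA, read 9.93 and 8.89 in STING +/- hearts, against 11.34 and 11.24 in STING +/+ hearts. It fell by 1.88 ± 0.32 (adjusted p = 0.00711), to 27.2%. In Isg20, Ifi47 and Oas1g both STING +/- arrays lay below both STING +/+ arrays, and STING +/- replicate 1 was the nearer to them.

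In the middle of the list, Usp18, the protease that removes ISG15 from proteins and dampens interferon signalling, read 12.74 and 11.79 in STING +/- hearts, against 13.45 and 13.16 in STING +/+ hearts. The groups did not overlap, but the difference of -1.04 ± 0.36 (adjusted p = 0.0967) did not pass. Isg15, a ubiquitin-like modifier, read 12.85 and 11.68 in STING +/- hearts, against 13.78 and 12.36 in STING +/+ hearts. Its groups overlapped, with a difference of -0.81 ± 0.49 (adjusted p = 0.335). Irf7, the transcription factor that amplifies interferon production, read 10.54 and 9.31 in STING +/- hearts, against 11.28 and 11.78 in STING +/+ hearts. Its groups did not overlap, and it stood at 32.8% of the STING +/+ level without passing (-1.61 ± 0.49, adjusted p = 0.0612). Usp18, Isg15 and Irf7 were chosen after their values were seen.

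At the upper end, Ifi27, an interferon-induced protein of mitochondria, read 14.51 and 14.34 in STING +/- hearts, against 14.48 and 14.47 in STING +/+ hearts. The groups overlapped and differed by -0.05 ± 0.24 (adjusted p = 0.925). Rsad2, which encodes the antiviral enzyme viperin, read 13.03 and 11.94 in STING +/- hearts, against 13.11 and 11.42 in STING +/+ hearts. Its groups overlapped, with a difference of 0.22 ± 0.55 (adjusted p = 0.843). Eif2ak2, which encodes the kinase PKR, read 11.09 and 10.64 in STING +/- hearts, against 11.65 and 9.73 in STING +/+ hearts, and its difference of 0.18 ± 0.58 (adjusted p = 0.884) did not pass. In Rsad2 and Eif2ak2 both STING +/- arrays lay between the STING +/+ arrays. Of the genes upstream, Ifnb1, which encodes interferon beta, read 4.54 and 4.43 in STING +/- hearts, against 5.61 and 6.75 in STING +/+ hearts. Ifnb1 was detected on 0 of 2 STING +/- arrays and was at least 2.40-fold lower there (adjusted p = 0.00897). Cgas, the DNA sensor, read 7.57 and 6.86 in STING +/- hearts, against 8.24 and 8.24 in STING +/+ hearts, and fell by 1.03 ± 0.29 (adjusted p = 0.0494). The kinase Tbk1, at -0.29 ± 0.23 (adjusted p = 0.463), and the transcription factor Irf3, at -0.65 ± 0.26 (adjusted p = 0.142), did not pass, and neither did Stat2 (-0.51 ± 0.26, adjusted p = 0.242) and Irf9 (-0.57 ± 0.25, adjusted p = 0.184) of the interferon response complex. Ifnb1, Cgas, Tbk1, Irf3, Stat2 and Irf9 were chosen after their values were seen.

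Promoters of this list were read for the letters of the response element. Its members were listed as interferon-stimulated genes, so a high share of motifs comes with that choice and does not measure STING dosage. The motif was GAAA, any 2 bases and GAAA again, or TTTC, any 2 bases and TTTC on the other strand, in RefSeq windows (build GRCm38.p6) from 250 bases before to 50 after the first listed start of a gene. Of 27025 windows 3.49% held it, against 17 of 36 of the interferon-stimulated genes with a window (47.2%), 9 of 10 of the interferon-inducible GTPases (90.0%) and 1 of 8 of the MHC class II genes (12.5%). Within the interferon-stimulated list, 3 of 7 under 35% of their STING +/+ level held it, 10 of 24 at 35% to 71% and 4 of 5 above 71%. The 250 bases before the start are shown for genes along the range of levels: Oas1g at 27.2%, Isg15 at 57.2%, Gbp7 at 77.2% and Rsad2 at 117%. Gbp7 comes from the GTPase list. All 4 hold the motif, unlike many windows of the interferon-stimulated list, so they are examples of a match and do not show its share at any level. Capitals mark the motif, and neighbouring matches in Oas1g and Isg15 overlap. Oas1g is read from chr5:120887614-120887863 on the minus strand, Isg15 from chr4:156200819-156201068 on the minus strand, Gbp7 from chr3:142530086-142530335 on the plus strand and Rsad2 from chr12:26456453-26456702 on the minus strand.
Oas1g: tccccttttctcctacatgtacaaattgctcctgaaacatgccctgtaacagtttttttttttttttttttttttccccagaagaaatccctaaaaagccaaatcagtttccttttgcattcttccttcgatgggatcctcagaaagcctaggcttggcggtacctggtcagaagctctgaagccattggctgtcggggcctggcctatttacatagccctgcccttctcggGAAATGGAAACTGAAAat
Isg15: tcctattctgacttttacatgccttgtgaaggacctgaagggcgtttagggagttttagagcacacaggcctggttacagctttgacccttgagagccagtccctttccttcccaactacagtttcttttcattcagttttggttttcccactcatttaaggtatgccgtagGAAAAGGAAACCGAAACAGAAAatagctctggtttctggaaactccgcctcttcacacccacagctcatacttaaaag
Gbp7: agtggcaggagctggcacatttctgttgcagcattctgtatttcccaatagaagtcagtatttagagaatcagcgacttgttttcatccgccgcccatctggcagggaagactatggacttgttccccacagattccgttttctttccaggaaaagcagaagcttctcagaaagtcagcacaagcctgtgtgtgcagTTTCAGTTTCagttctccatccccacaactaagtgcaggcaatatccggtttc
Rsad2: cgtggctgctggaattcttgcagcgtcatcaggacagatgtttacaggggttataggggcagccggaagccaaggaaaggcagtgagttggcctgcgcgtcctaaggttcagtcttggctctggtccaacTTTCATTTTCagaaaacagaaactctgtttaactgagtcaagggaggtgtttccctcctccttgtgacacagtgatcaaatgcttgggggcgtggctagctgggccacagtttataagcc
The printed stretches hold 2 matches in Oas1g, 3 in Isg15, 1 in Gbp7 and 1 in Rsad2. The nearest match ends 2 bases before the start in Oas1g, 56 in Isg15, 43 in Gbp7 and 110 in Rsad2. A match is a run of letters and not a measured binding site.

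The interferon-inducible GTPases, which attack the vacuoles of intracellular pathogens, fell in 6 of 15 members and rose in 0, with a median of -0.68 and a median level of 62.4%. Gbp2, a guanylate-binding protein, read 11.98 and 10.86 in STING +/- hearts, against 13.52 and 12.93 in STING +/+ hearts. It fell by 1.80 ± 0.39 (adjusted p = 0.0175). Irgm1, which regulates other immunity-related GTPases, read 13.64 and 13.12 in STING +/- hearts, against 14.98 and 14.93 in STING +/+ hearts. It fell by 1.57 ± 0.23 (adjusted p = 0.00397) and was stable. Neither gene overlapped between the groups. Gbp7, whose promoter is printed above, read 9.96 and 8.73 in STING +/- hearts, against 10.13 and 9.32 in STING +/+ hearts, which overlap (-0.37 ± 0.39, adjusted p = 0.596). The count of falls was 5 without STING +/+ replicate 2 and 3 without STING +/- replicate 2. The list median was -0.22 without STING +/+ replicate 1 and -1.31 without STING +/+ replicate 2, and -1.27 and -0.21 without STING +/- replicates 1 and 2.

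Genes of MHC class I presentation and the immunoproteasome, which display peptides to cytotoxic T cells, fell in 9 of 25 members and rose in 0, with a median of -0.96 and a median level of 51.6%. Psmb9, a catalytic subunit of the immunoproteasome, read 10.89 and 9.81 in STING +/- hearts, against 12.00 and 12.57 in STING +/+ hearts. It fell by 1.93 ± 0.33 (adjusted p = 0.00645), to 26.2%, without overlap. H2-Q7 and H2-T23, both nonclassical class I molecules, fell by 1.79 ± 0.30 and 1.65 ± 0.37. B2m, the light chain of class I molecules, read 15.46 and 14.98 in STING +/- hearts, against 15.55 and 15.53 in STING +/+ hearts. Its groups did not overlap, and its difference of -0.32 ± 0.22 (adjusted p = 0.397) did not pass. The highest signal of any feature was 15.83, close to B2m, where the scale can hide part of a difference. H2-T22, another class I molecule, was detected on 0 of 2 STING +/- arrays and was at least 2.36-fold lower there (adjusted p = 0.0349). The number that fell was 9 without STING +/+ replicate 2 and 0 by limma without STING +/- replicate 2. Their median was -0.57 without STING +/- replicate 2 and -0.63 without STING +/+ replicate 1, where 3 members rose.

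MHC class II presentation, a property of professional antigen-presenting cells, had a lower median than these 3 lists. Of 11 measured members 11 fell, with a median of -2.48 and a median level of 17.9%; 6 stood under 18%, 4 at 18% to 35% and H2-Ob at 55.2%. H2-Ab1, a chain of the class II heterodimer, read 12.23 and 10.84 in STING +/- hearts, against 14.36 and 14.16 in STING +/+ hearts. It fell by 2.73 ± 0.51 (adjusted p = 0.00991), to 15.0%. H2-DMb1, a chain of the peptide exchange factor DM, read 8.82 and 7.55 in STING +/- hearts, against 10.80 and 11.89 in STING +/+ hearts. It fell by 3.17 ± 0.50 (adjusted p = 0.00491). Ctss, the protease that trims the invariant chain, read 8.26 and 7.48 in STING +/- hearts, against 10.83 and 10.78 in STING +/+ hearts. It fell by 2.94 ± 0.37 (adjusted p = 0.00197). Ciita, the master regulator of class II transcription, read 5.62 and 4.97 in STING +/- hearts, against 7.74 and 7.44 in STING +/+ hearts. It fell by 2.29 ± 0.28 (adjusted p = 0.00169) and was detected on 1 of 2 STING +/- arrays. The groups did not overlap in any of these 4 genes, and Ctss and Ciita were stable. The list mean was 7.07 and 7.69 in STING -/- hearts, 8.88 and 8.01 in STING +/- hearts and 10.72 and 11.01 in STING +/+ hearts, so STING +/- hearts lay nearer to STING -/- than to STING +/+ hearts. Without STING +/- replicate 2 the falls numbered 2.

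**Figure D2:**
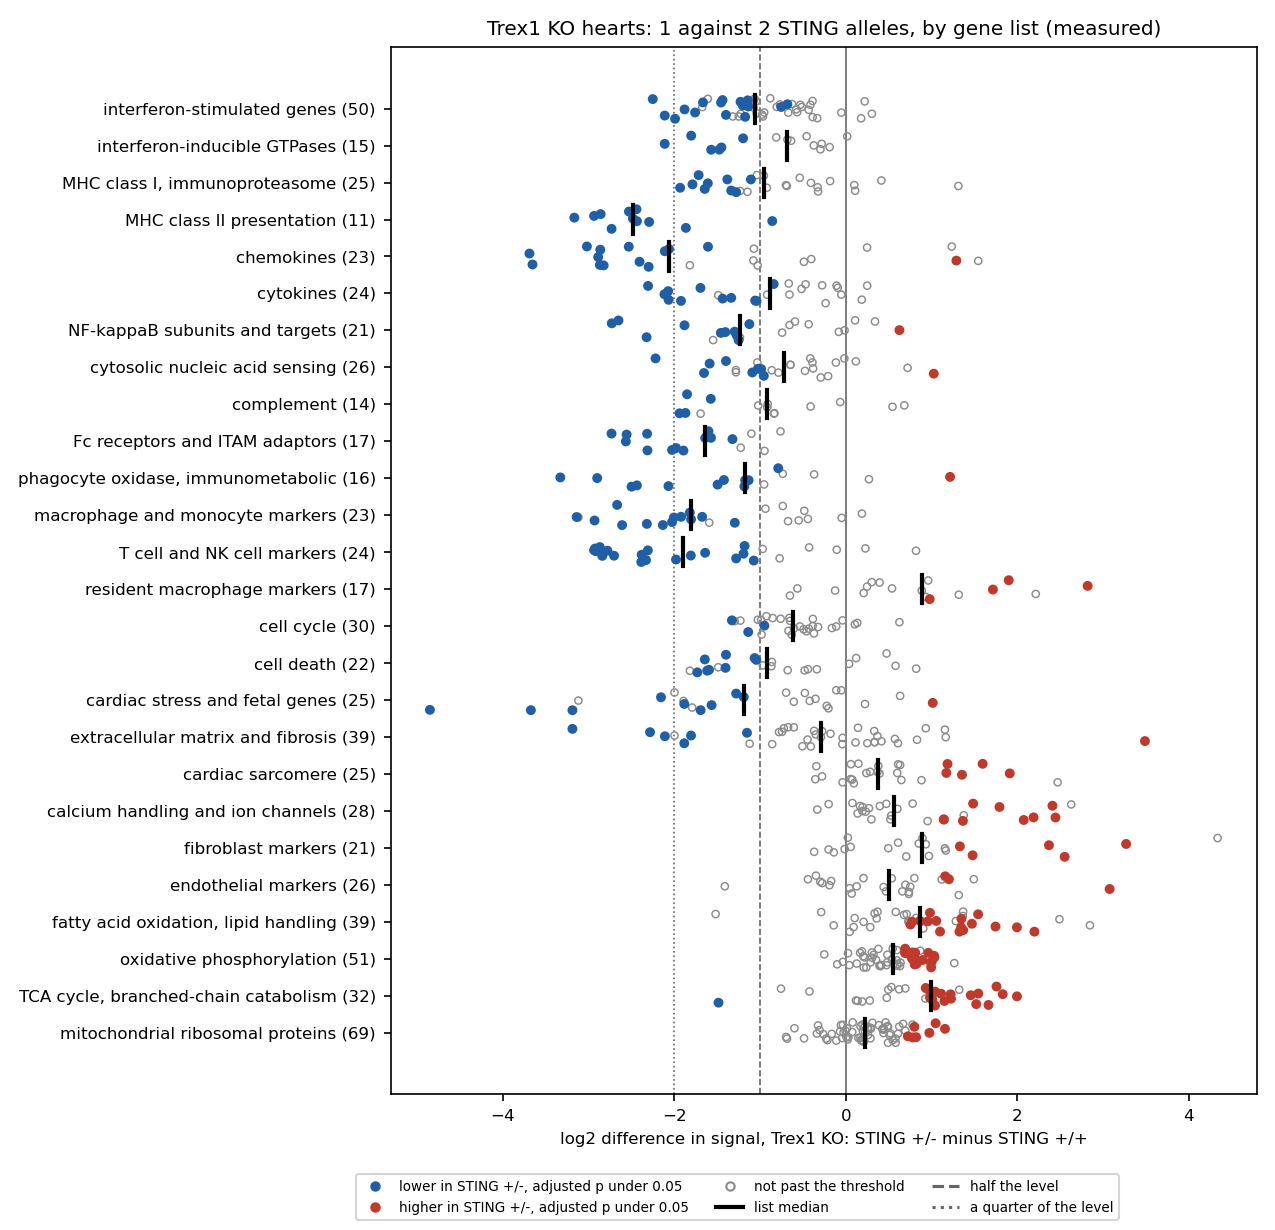
Log2 difference, Trex1 KO, STING +/- minus STING +/+, for the measured members of 26 gene lists (1 point a gene; black bar, list median; filled points passed the threshold). The medians of MHC class II (-2.48) and chemokines (-2.06) lie left of the dotted line of 25% of the level, that of the interferon-stimulated genes (-1.05) by the dashed line of 50%, and those of fatty acid oxidation, the tricarboxylic acid cycle and oxidative phosphorylation right of 0.

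Chemokines, which draw leukocytes into tissue, fell in 13 of 23 members and rose in 1, with a median of -2.06 and a median level of 23.9%; 8 stood under 18%. Ccl4, a chemokine of activated macrophages and lymphocytes, read 9.14 and 7.42 in STING +/- hearts, against 11.89 and 12.04 in STING +/+ hearts. It fell by 3.69 ± 0.46 (adjusted p = 0.00197), to 7.75% of the STING +/+ level. Ccl3, a chemokine that macrophages release in inflammation, read 6.21 and 5.18 in STING +/- hearts, against 9.43 and 9.27 in STING +/+ hearts. It fell by 3.65 ± 0.31 (adjusted p = 0.000484). Neither gene overlapped between the groups, and both were stable. Ccl7 and Ccl2, which attract monocytes through CCR2, fell by 3.02 ± 0.59 and 2.89 ± 0.67. Ccl5, which T cells and NK cells also make, read 10.15 and 8.98 in STING +/- hearts, against 12.42 and 12.46 in STING +/+ hearts, and fell by 2.87 ± 0.42 (adjusted p = 0.00359). Cxcl9, a ligand of CXCR3 induced by interferon gamma, read 11.90 and 10.85 in STING +/- hearts, against 13.87 and 13.69 in STING +/+ hearts. It fell by 2.41 ± 0.38 (adjusted p = 0.00491) without overlap. Cxcl10, another CXCR3 ligand, read 9.59 and 7.63 in STING +/- hearts, against 11.31 and 9.55 in STING +/+ hearts, which overlap, and its difference of -1.82 ± 0.61 (adjusted p = 0.0862) did not pass. Cxcl9 and Cxcl10 were chosen after their values were seen. The number of chemokines that fell was 5 without STING +/- replicate 2.

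Chemokine receptors fell in 3 of 12 members and rose in 1. Cxcr3, the receptor of activated T cells, fell by 2.39 ± 0.29, Cxcr6 fell by 1.83 ± 0.17, and the atypical receptor Ackr1, which binds chemokines without signalling, fell by 1.42 ± 0.22. The atypical receptor Ackr4 rose by 1.76 ± 0.32. Without STING +/+ replicate 1 5 receptors fell. Cytokines fell in 11 of 24 members and rose in 0, with a median of -0.88. Ifng, which encodes interferon gamma, read 4.73 and 4.57 in STING +/- hearts, against 6.99 and 6.44 in STING +/+ hearts. It was detected on 0 of 2 STING +/- arrays and was at least 3.48-fold lower there (adjusted p = 0.00151). Tnf, which encodes the inflammatory cytokine TNF, read 5.26 and 4.58 in STING +/- hearts, against 6.79 and 7.20 in STING +/+ hearts, and fell by 2.07 ± 0.24 (adjusted p = 0.00151). Il1rn, the antagonist of the interleukin-1 receptor, read 5.16 and 5.18 in STING +/- hearts, against 6.95 and 7.62 in STING +/+ hearts, and fell by 2.12 ± 0.25 (adjusted p = 0.00165). Ifng, Tnf and Il1rn did not overlap between the groups and were stable. Among type I interferon genes, Ifna1 read 5.44 and 5.56 in STING +/- hearts, against 4.95 and 5.67 in STING +/+ hearts, which overlap (0.19 ± 0.26, adjusted p = 0.699). The number of cytokines that fell was 4 without STING +/- replicate 2 and 7 without STING +/+ replicate 2.

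Interferon and cytokine receptors, JAKs and SOCS genes fell in 6 of 22 members and rose in 0, with a median of -0.27. The receptor chains for type I interferon, Ifnar2 (-0.04 ± 0.28, adjusted p = 0.951), and for interferon gamma, Ifngr1 (0.05 ± 0.20, adjusted p = 0.917), did not pass. Socs3, a feedback inhibitor of cytokine receptors, read 7.47 and 7.02 in STING +/- hearts, against 9.71 and 9.35 in STING +/+ hearts. It fell by 2.29 ± 0.34 (adjusted p = 0.00374), without overlap, and was stable. Without STING +/- replicate 2 2 genes of this list fell, and the median was -0.42 without STING +/- replicate 1 and -0.12 without STING +/+ replicate 1. Genes of cytosolic nucleic acid sensing fell in 8 of 26 members and rose in 1, with a median of -0.72; Sting1 itself, at 33.3% of its STING +/+ level, is a member. Ifi211, of the AIM2-like DNA-binding family, read 5.72 and 4.72 in STING +/- hearts, against 7.13 and 7.75 in STING +/+ hearts, and fell by 2.22 ± 0.33 (adjusted p = 0.00405). Zbp1, a sensor of Z-form nucleic acid, fell by 1.40 ± 0.25 (adjusted p = 0.00903). Tlr3, an endosomal receptor of double-stranded RNA, read 6.66 and 6.10 in STING +/- hearts, against 6.70 and 6.48 in STING +/+ hearts, which overlap (-0.21 ± 0.23, adjusted p = 0.62). The number of sensing genes that fell was 1 without STING +/- replicate 2.

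NF-kappaB subunits and targets fell in 10 of 21 members and rose in 1, with a median of -1.23 and a median level of 42.5%. Cd40, a costimulatory receptor of antigen-presenting cells, read 7.95 and 7.31 in STING +/- hearts, against 9.67 and 10.23 in STING +/+ hearts. It fell by 2.32 ± 0.27 (adjusted p = 0.00144). Cd69, an early activation marker of lymphocytes, read 7.42 and 5.76 in STING +/- hearts, against 9.34 and 9.30 in STING +/+ hearts. It fell by 2.73 ± 0.43 (adjusted p = 0.00509). Both genes were without overlap and stable. Nfkbia, the inhibitor of NF-kappaB that it induces itself, read 8.97 and 9.02 in STING +/- hearts, against 9.41 and 8.75 in STING +/+ hearts, which overlap (-0.08 ± 0.28, adjusted p = 0.894), and the subunit Rela differed by -0.59 ± 0.20 (adjusted p = 0.0885). The number that fell was 3 without STING +/- replicate 2 and 5 without STING +/+ replicate 2.

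Most T cell and NK cell markers were lower with 1 STING allele. T cell and NK cell markers fell in 18 of 24 members and rose in 0, with a median of -1.89 and a median level of 26.9%. Their summed linear signal was 3848 and 2436 in STING +/- hearts, against 11924 and 14299 in STING +/+ hearts, where STING -/- hearts had 1267 and 1536. Cd3d, a chain of the T cell receptor complex, read 6.99 and 6.14 in STING +/- hearts, against 9.04 and 9.94 in STING +/+ hearts. It fell by 2.93 ± 0.33 (adjusted p = 0.00139). Cd6, a T cell surface receptor, read 5.39 and 4.66 in STING +/- hearts, against 7.76 and 8.17 in STING +/+ hearts, and fell by 2.94 ± 0.26 (adjusted p = 0.000494). Nkg7, of cytotoxic granules, read 7.80 and 6.93 in STING +/- hearts, against 9.90 and 10.40 in STING +/+ hearts, and fell by 2.78 ± 0.33 (adjusted p = 0.00165). None of these 3 genes overlapped between the groups. Of the 24 markers 23 were detected on STING +/- replicate 1 and 17 on replicate 2, against 24 and 23 on the STING +/+ arrays. The stable members were Ccl5, Cd2, Cd27, Cd3d, Cd3e, Cd3g, Cd6, Lat, Nkg7 and Zap70, at 10 the highest number of stable genes in any list. Without STING +/- replicate 2 the falls numbered 10. These marker sums differed between the groups along with the immune lists above, and their part in those results was not tested.

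Macrophage and monocyte markers fell in 13 of 23 members and rose in 0, with a median of -1.80, and their summed signal was 42724 and 32796 in STING +/- hearts, against 90802 and 85257 in STING +/+ hearts. Cd72, an inhibitory receptor of B cells that macrophages also carry, read 10.06 and 7.78 in STING +/- hearts, against 12.14 and 11.98 in STING +/+ hearts. It fell by 3.14 ± 0.59 (adjusted p = 0.0103). Chil3, a chitinase-like protein of inflammatory macrophages, read 4.60 and 4.83 in STING +/- hearts, against 7.91 and 7.38 in STING +/+ hearts. It was detected on 0 of 2 STING +/- arrays and was at least 6.62-fold lower there (adjusted p = 0.000359). Ms4a7, a membrane protein of macrophages, read 9.81 and 8.57 in STING +/- hearts, against 11.66 and 12.06 in STING +/+ hearts, and fell by 2.67 ± 0.55 (adjusted p = 0.0145). The arrays of both groups stayed apart in these 3 genes. Ptprc, the common leukocyte antigen CD45, read 5.63 and 4.96 in STING +/- hearts, against 7.09 and 4.47 in STING +/+ hearts, which overlap (-0.48 ± 0.64, adjusted p = 0.682). Ptprc was detected on 1 of 2 arrays in each group. On STING +/+ replicate 2 it lay below the lowest detected signal of that array, 5.02. Ptprc was chosen after its values were seen. The number of these markers that fell was 6 without STING +/- replicate 2.

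Fc receptors and their ITAM adaptors, through which phagocytes take up antibody-coated targets, fell in 12 of 17 members and rose in 0, with a median of -1.64. Fcer1g, the common gamma chain, read 11.31 and 9.56 in STING +/- hearts, against 12.98 and 13.36 in STING +/+ hearts. It fell by 2.73 ± 0.50 (adjusted p = 0.00903), without overlap, while the receptor Fcgr4 fell by 2.56 ± 0.46 and the adaptor Tyrobp by 2.32 ± 0.47. Phagocyte oxidase and immunometabolic genes fell in 11 of 16 members and rose in 1. Acod1, which makes itaconate, read 6.34 and 5.00 in STING +/- hearts, against 9.15 and 8.86 in STING +/+ hearts, and fell by 3.33 ± 0.35 (adjusted p = 0.00101). Ch25h, which makes the oxysterol 25-hydroxycholesterol, read 9.42 and 7.37 in STING +/- hearts, against 11.57 and 11.02 in STING +/+ hearts, and fell by 2.90 ± 0.53 (adjusted p = 0.00897). Both were without overlap and stable. Complement genes fell in 4 of 14 members and rose in 0, among them C1qa of the classical pathway by 1.94 ± 0.45 and Cfb of the alternative pathway by 1.87 ± 0.40. The numbers that fell without STING +/- replicate 2 were 3 of the Fc receptor genes, 3 of the phagocyte genes and 0 by limma of the complement genes. Without STING +/+ replicate 2 they were 6, 9 and 1 in the same order.

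Resident macrophage markers went the opposite way: 4 of 17 rose and 0 fell, with a median of 0.89. F13a1, a clotting factor subunit found in tissue macrophages, read 8.81 and 9.81 in STING +/- hearts, against 6.78 and 6.21 in STING +/+ hearts. It rose by 2.82 ± 0.38 (adjusted p = 0.00262). Mrc1, the mannose receptor, read 9.19 and 8.91 in STING +/- hearts, against 7.47 and 7.20 in STING +/+ hearts. It rose by 1.72 ± 0.22 (adjusted p = 0.00239). Both genes were without overlap and stable. Cd163, a scavenger receptor for haemoglobin complexes, read 5.04 and 8.38 in STING +/- hearts, against 4.42 and 4.56 in STING +/+ hearts. Its STING +/- replicate 2 lay far above the other arrays, and the difference of 2.22 ± 0.86 (adjusted p = 0.13) did not pass. Cd163 was chosen after its values were seen. The summed signal of these markers was 5935 and 7512 in STING +/- hearts, against 3816 and 5487 in STING +/+ hearts, and 2 rose, at a median of 0.40, without STING +/- replicate 2. B cell and plasma cell markers fell in 3 of 8 members, neutrophil markers in 2 of 7 and dendritic cell markers in 4 of 11, and none of these 3 lists had a rise. Without STING +/- replicate 1 the falls were 1 of the B cell and 2 of the dendritic cell markers, and limma called 0 of both lists without STING +/- replicate 2 and without STING +/+ replicate 2, and 0 neutrophil markers without STING +/- replicate 2. The B cell surface receptor Cd22 and the neutrophil granule protein Ltf were detected on 0 of 2 STING +/- arrays.

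**Figure D3:**
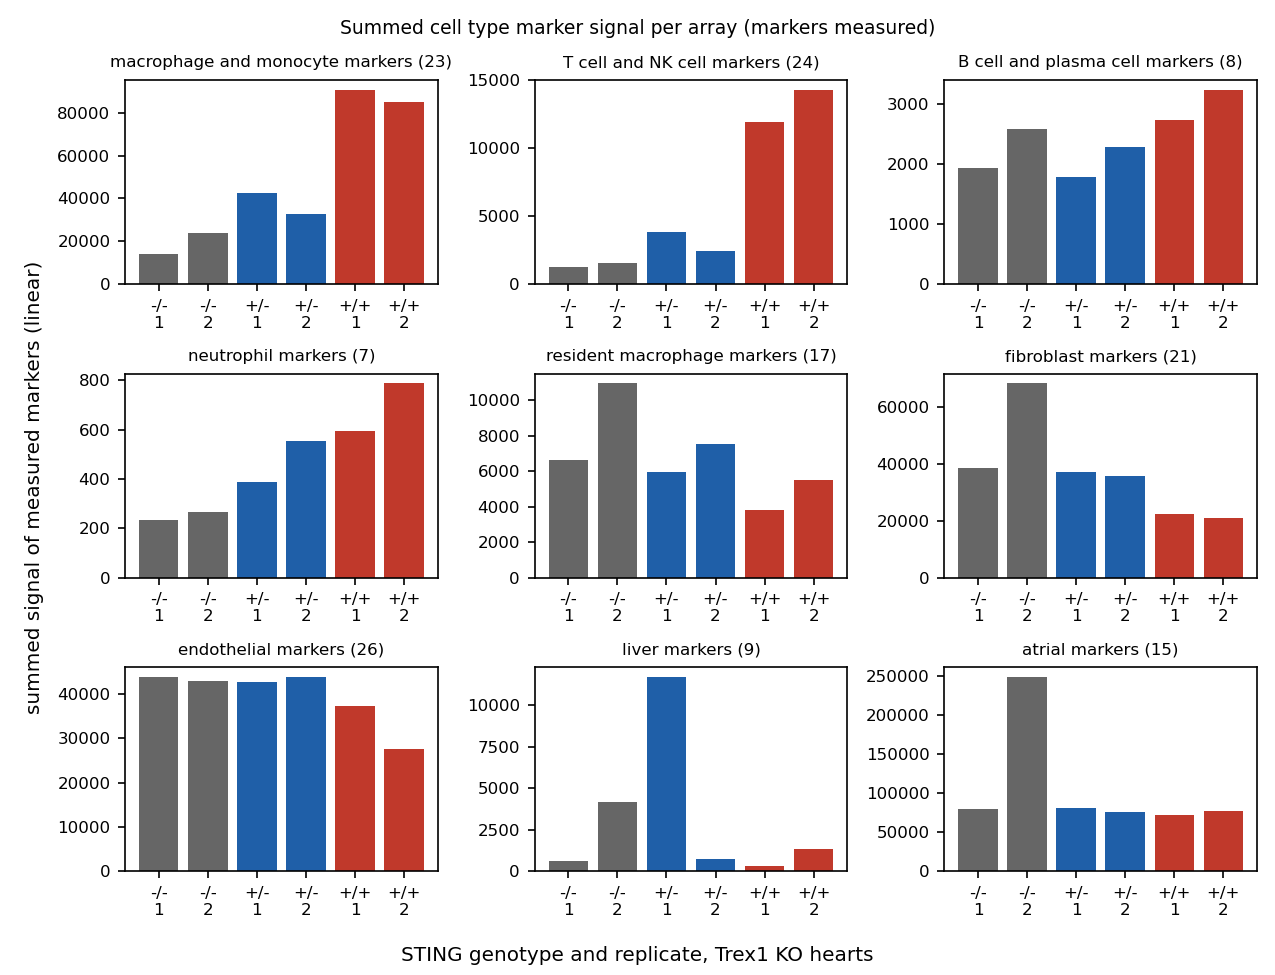
Summed linear signal of the measured markers of 9 cell types on each Trex1 KO array, by STING genotype and replicate. T cell and NK cell sums are 3848 and 2436 in STING +/- hearts, against 11924 and 14299 in STING +/+ hearts, and the liver sum is highest on STING +/- replicate 1.

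Genes of cardiac stress and of the fetal heart program fell in 9 of 25 members and rose in 1, with a median of -1.19 and a median level of 43.8%. Nmrk2, a nicotinamide riboside kinase known to rise in failing heart muscle, read 7.44 and 8.56 in STING +/- hearts, against 12.80 and 12.91 in STING +/+ hearts. It fell by 4.85 ± 0.43 (adjusted p = 0.000494), to 3.46% of the STING +/+ level, the largest fall among the named genes. Sprr1a, a stress-induced protein of heart muscle cells, read 5.64 and 6.04 in STING +/- hearts, against 9.46 and 9.57 in STING +/+ hearts. It fell by 3.67 ± 0.22 (adjusted p = 8.14e-05). Timp1, an inhibitor of matrix metalloproteinases, read 8.97 and 8.08 in STING +/- hearts, against 11.93 and 11.50 in STING +/+ hearts. It fell by 3.19 ± 0.50 (adjusted p = 0.00491). Krt18, a keratin of simple epithelia that is in none of the lists, read 4.75 and 4.45 in STING +/- hearts, against 8.62 and 8.67 in STING +/+ hearts. It was detected on 0 of 2 STING +/- arrays and was at least 13.2-fold lower there (adjusted p = 8.14e-05). None of the 4 genes overlapped between the groups, which was a condition for naming the largest falls, and all but Timp1 were stable. Krt18 and Sprr1a were also among the 6 features called from the 4 arrays alone. The number of stress genes that fell was 5 without STING +/- replicate 2.

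The natriuretic peptides, released by stretched heart muscle, were both among the brighter signals. Nppb read 13.80 and 13.41 in STING +/- hearts, against 15.14 and 15.45 in STING +/+ hearts, and fell by 1.69 ± 0.41 (adjusted p = 0.028), to 30.9%. Nppa read 15.35 and 15.30 in STING +/- hearts, against 15.52 and 15.57 in STING +/+ hearts, and its difference of -0.22 ± 0.22 (adjusted p = 0.564) did not pass. Nppb and Nppa did not overlap between the groups, and both were chosen after their values were seen. Slpi, an inhibitor of neutrophil proteases, read 5.45 and 4.89 in STING +/- hearts, against 10.14 and 8.81 in STING +/+ hearts, and fell by 4.31 ± 0.88 (adjusted p = 0.0144), without overlap, but was not stable. Serpina3f, a serine protease inhibitor, read 7.92 and 6.47 in STING +/- hearts, against 10.44 and 10.20 in STING +/+ hearts, and fell by 3.12 ± 0.37 (adjusted p = 0.00165). Slc2a6, a sugar transporter of the GLUT family, read 6.00 and 5.47 in STING +/- hearts, against 8.78 and 9.00 in STING +/+ hearts, and fell by 3.16 ± 0.24 (adjusted p = 0.000359). Rgs1, a regulator of G protein signalling in leukocytes, read 6.23 and 4.88 in STING +/- hearts, against 8.22 and 9.27 in STING +/+ hearts, and fell by 3.19 ± 0.42 (adjusted p = 0.00239). Serpina3f, Slc2a6 and Rgs1 were without overlap and stable.

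Extracellular matrix and fibrosis genes had no shared direction. Of 39 measured, 6 fell and 1 rose, and their median of -0.29 was 0.23 without STING +/+ replicate 1, -0.61 without STING +/+ replicate 2 and -0.08 without STING +/- replicate 2. Tgfb2, a profibrotic cytokine, read 6.36 and 5.95 in STING +/- hearts, against 8.94 and 7.93 in STING +/+ hearts. It fell by 2.28 ± 0.32 (adjusted p = 0.00313). Lox, which crosslinks collagen, read 6.18 and 6.58 in STING +/- hearts, against 9.14 and 7.84 in STING +/+ hearts, and fell by 2.11 ± 0.40 (adjusted p = 0.0103). Timp4, a metalloproteinase inhibitor abundant in heart, read 8.47 and 10.36 in STING +/- hearts, against 5.58 and 6.28 in STING +/+ hearts, and rose by 3.49 ± 0.52 (adjusted p = 0.00395). The groups did not overlap in any of these 3 genes, and Tgfb2 and Timp4 were stable. The number that fell was 1 without STING +/- replicate 2.

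Genes of the unfolded protein response fell in 5 of 21 members and rose in 0, with a median of -0.34. Trib3, a pseudokinase induced by stress, fell by 2.23 ± 0.36 (adjusted p = 0.00554). Ddit3, which encodes the stress factor CHOP, read 10.69 and 10.37 in STING +/- hearts, against 11.99 and 11.57 in STING +/+ hearts, and fell by 1.25 ± 0.23 (adjusted p = 0.00903), without overlap. Cell death genes fell in 8 of 22 members and rose in 0. Casp1, which activates interleukin-1 beta, fell by 1.64 ± 0.31 and Mlkl, the effector of necroptosis, fell by 1.60 ± 0.27. Cell cycle genes fell in 3 of 30 members and rose in 0, with a median of -0.62. That count was near the 6.75% of all features called lower. Tpx2, of the mitotic spindle, fell by 1.33 ± 0.25 (adjusted p = 0.0105). Without STING +/- replicate 2 limma called 0 cell death and 0 cell cycle genes lower, and without STING +/+ replicate 1 it called 11 and 10, and without STING +/+ replicate 2 5 and 1. The falls of the unfolded protein response numbered 2 and 1 without STING +/- replicates 1 and 2, and 3 without STING +/+ replicate 2. Its median was -0.21 without STING +/- replicate 2, -0.14 with 2 rises without STING +/+ replicate 1, and -0.53 without STING +/+ replicate 2. The cell cycle median was -1.04 and -0.20 without STING +/- replicates 1 and 2, and -0.35 without STING +/+ replicate 2.

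Many genes of mitochondrial fuel use were higher with 1 STING allele. Of 39 fatty acid oxidation and lipid handling genes 16 rose and 0 fell in STING +/- hearts, at a median of 0.87. Of 32 genes of the tricarboxylic acid cycle and branched-chain amino acid catabolism 17 rose and 1 fell (median 1.00), and of 51 oxidative phosphorylation genes 16 rose and 0 fell, at a median of 0.55. In 31, 26 and 34 of these genes both STING +/- arrays lay above both STING +/+ arrays, which held for 24.8% of all features. Ppara, the nuclear receptor that drives fatty acid oxidation genes, read 7.04 and 7.40 in STING +/- hearts, against 5.29 and 4.75 in STING +/+ hearts. It rose by 2.20 ± 0.34 (adjusted p = 0.00474). Hadh, a dehydrogenase of fatty acid oxidation, read 7.75 and 8.24 in STING +/- hearts, against 6.68 and 5.31 in STING +/+ hearts, and rose by 2.00 ± 0.42 (adjusted p = 0.0163). Ivd, of leucine breakdown, read 11.34 and 11.69 in STING +/- hearts, against 9.42 and 9.94 in STING +/+ hearts, and rose by 1.83 ± 0.22 (adjusted p = 0.00165). The groups did not overlap in Ppara, Hadh or Ivd. Dbt, of the branched-chain ketoacid dehydrogenase, rose by 1.67 ± 0.24, Uqcrc1, of complex III, rose by 1.03 ± 0.21, and Ndufa9, of complex I, rose by 1.00 ± 0.18. The rises in the 3 lists, in the order above, numbered 1, 4 and 0 (limma) without STING +/- replicate 2. They numbered 6, 11 and 7 without STING +/- replicate 1, and 7, 15 and 10 without STING +/+ replicate 2. The 3 list medians stayed above 0 without each of the 4 arrays in turn.

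Glucose genes rose in 9 of 28 members and fell in 2. Slc2a4, the insulin-responsive glucose transporter, read 10.35 and 10.64 in STING +/- hearts, against 8.73 and 8.72 in STING +/+ hearts. It rose by 1.77 ± 0.25 (adjusted p = 0.0033). Slc2a1, the basal glucose transporter, read 8.26 and 8.36 in STING +/- hearts, against 10.24 and 9.95 in STING +/+ hearts. It fell by 1.79 ± 0.25 (adjusted p = 0.00301). Both were without overlap and stable, so the 2 transporters went opposite ways. The rises of the list numbered 4 and 1 without STING +/- replicates 1 and 2. Mitochondrial ribosomal proteins had 7 rises and 0 falls among 69 members (median 0.22), and without STING +/- replicates 1 and 2 the rises numbered 4 and 0 (limma). This list had no settled direction: without STING +/+ replicate 1 it had 6 rises and 6 falls at a median of -0.0018, and without STING +/+ replicate 2 the median was 0.51. Cytosolic ribosomal proteins fell in 3 of 47 and rose in 0, with a median of -0.49, a count near the 6.75% of all features called lower; the median was -0.19 with 0 falls by limma without STING +/+ replicate 2, and -0.77 with 28 falls without STING +/+ replicate 1. Without STING +/- replicates 1 and 2 their falls numbered 1 and 0.

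Some genes of the heart muscle cell itself were also higher. Calcium handling and ion channel genes had 9 rises and 0 falls among 28 members (median 0.57). Hrc, a calcium-binding protein of the sarcoplasmic reticulum, read 13.41 and 13.62 in STING +/- hearts, against 11.25 and 10.95 in STING +/+ hearts. It rose by 2.41 ± 0.21 (adjusted p = 0.000484). Kcnip2, a subunit of the transient outward potassium channel, read 8.46 and 8.57 in STING +/- hearts, against 6.69 and 5.44 in STING +/+ hearts, and rose by 2.45 ± 0.41 (adjusted p = 0.00645). Neither overlapped between the groups, and Hrc was stable. Sarcomere genes had 5 rises and 0 falls among 25 members (median 0.38). Ckm, muscle creatine kinase, rose by 1.60 ± 0.23 (adjusted p = 0.0033). Myh6, the myosin of the adult heart, read 14.94 and 14.43 in STING +/- hearts, against 13.72 and 13.27 in STING +/+ hearts, and rose by 1.19 ± 0.24 (adjusted p = 0.0139), without overlap. The rises numbered 1 and 2 in the calcium and sarcomere lists without STING +/- replicate 2, 4 and 3 without STING +/- replicate 1, and 2 and 4 without STING +/+ replicate 2, where the sarcomere median was 0.25. Atrial markers, listed to read how much atrium a sample holds, rose in 4 of 15 members. That count was 2 without STING +/- replicate 2 and 2 without STING +/+ replicate 2. Their summed signals were 80085 and 75716 in STING +/- hearts, against 71681 and 76298 in STING +/+ hearts. Bright members such as Nppa and Myh6 weigh more in these sums, so the sums do not show an equal share of atrium. The atrial median of 0.66 was 0.93 and 0.05 without STING +/- replicates 1 and 2, and 0.13 and 0.96 without STING +/+ replicates 1 and 2. The mean log2 signal of the list was 8.49 and 9.62 on STING +/- replicates 1 and 2. The part of atrial tissue in the muscle results was not tested.

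Some stromal and vascular markers shared this direction. Fibroblast markers had 5 rises and 0 falls among 21 members (median 0.90), and endothelial markers 3 and 0 among 26 (median 0.50). The fibroblast rises numbered 2 and 2 without STING +/- replicates 1 and 2, 9 and 3 without STING +/+ replicates 1 and 2, and the endothelial rises 8 without STING +/+ replicate 1. The endothelial median was 0.21 without STING +/- replicate 1, 0.77 without STING +/+ replicate 1, and 0.21 with 1 fall without STING +/+ replicate 2. Scara5, a ferritin receptor of fibroblasts, read 8.23 and 9.04 in STING +/- hearts, against 5.36 and 5.37 in STING +/+ hearts. It rose by 3.27 ± 0.25 (adjusted p = 0.000359). Aqp1, the water channel of endothelium, read 11.60 and 12.98 in STING +/- hearts, against 8.76 and 9.67 in STING +/+ hearts, and rose by 3.08 ± 0.42 (adjusted p = 0.00301). Tie1, an endothelial receptor kinase, read 7.97 and 7.81 in STING +/- hearts, against 6.73 and 6.64 in STING +/+ hearts, and rose by 1.20 ± 0.20 (adjusted p = 0.00624). Scara5, Aqp1 and Tie1 were without overlap and stable. Inmt, an indolethylamine methyltransferase, had the largest rise among the named genes: it read 9.09 and 9.66 in STING +/- hearts, against 4.63 and 6.65 in STING +/+ hearts, and rose by 3.73 ± 0.59 (adjusted p = 0.00496), but was not stable. Ces1d, a carboxylesterase of lipid metabolism, read 11.30 and 11.35 in STING +/- hearts, against 7.62 and 8.36 in STING +/+ hearts. It rose by 3.33 ± 0.30 (adjusted p = 0.00053) and was stable. P2ry1, a receptor for ADP, rose by 2.87 ± 0.32, Ephb1, an ephrin receptor, rose by 2.65 ± 0.36, and Ky, a muscle protein named after the kyphoscoliosis of mutant mice, rose by 2.64 ± 0.29. P2ry1, Ephb1 and Ky were stable. Opa1, of mitochondrial fusion, rose by 2.56 ± 0.67 and Gpcpd1 rose by 3.28 ± 0.74, but on STING +/+ replicate 2 they read 4.63 and 4.69, against 6.77 and 6.48 on replicate 1, and neither was stable.

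**Figure D4:**
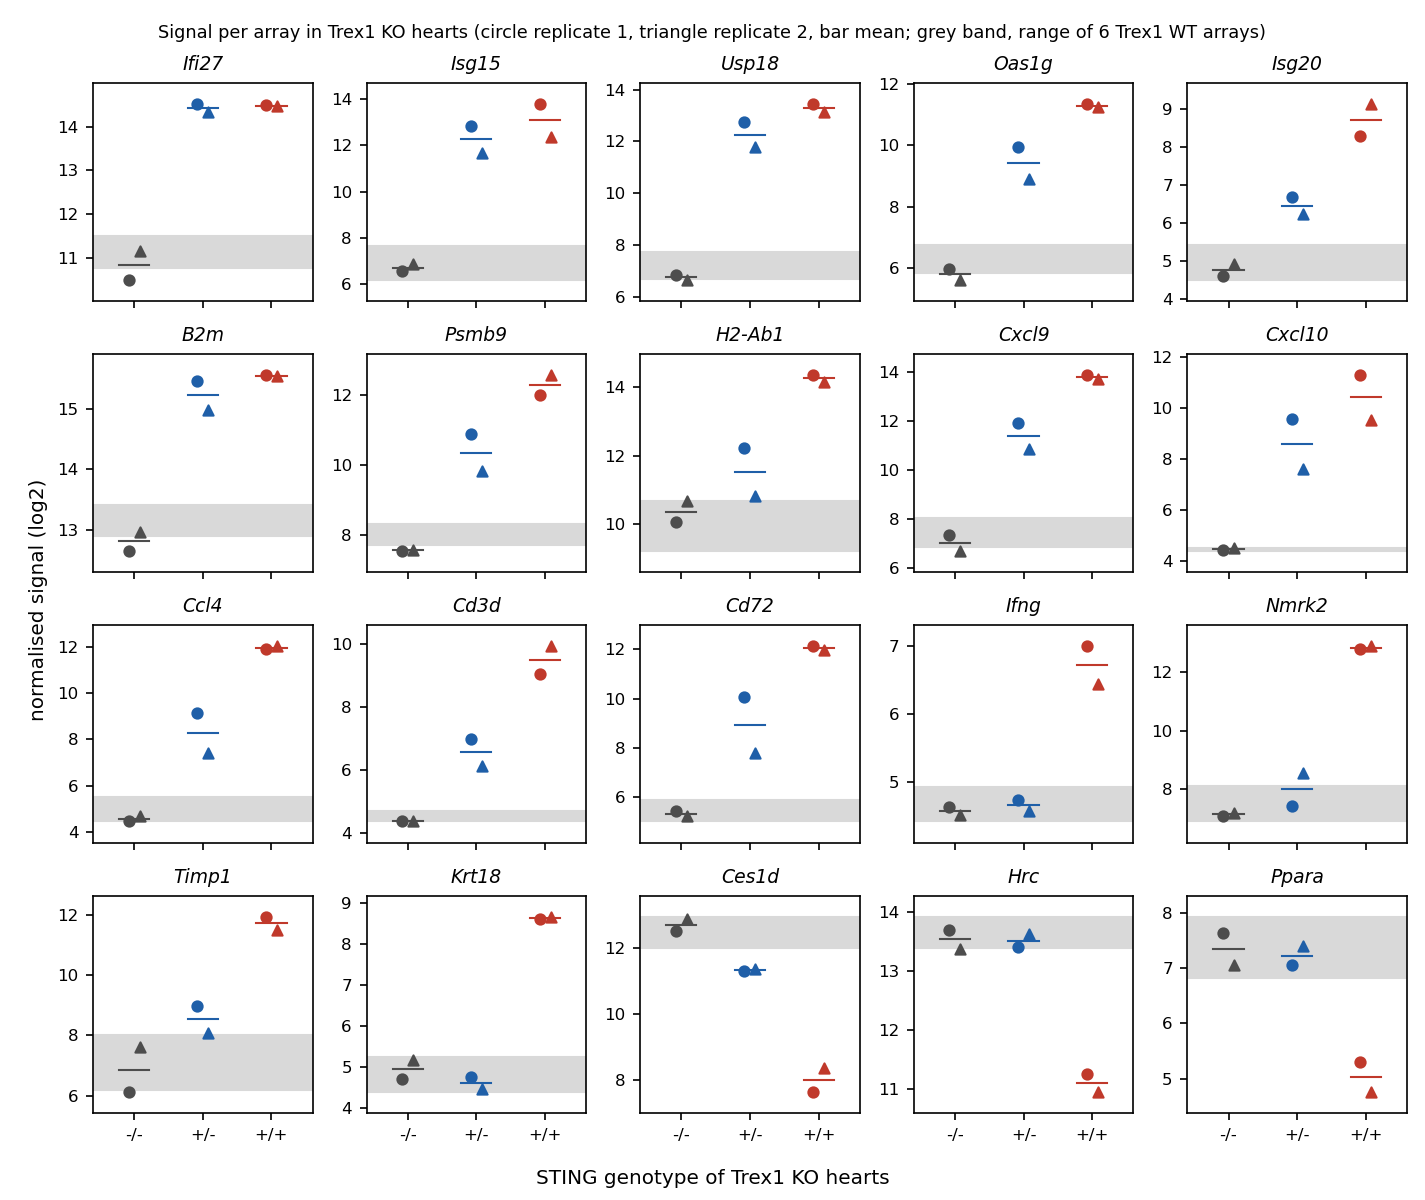
Log2 signal on each Trex1 KO array by STING genotype for 20 genes (circle, replicate 1; triangle, replicate 2; bar, mean; grey band, range of the 6 Trex1 WT arrays). Ifi27 is at the same height with 1 and with 2 STING alleles, H2-Ab1 and Cd3d lie in between STING -/- and STING +/+, and the STING +/- arrays of Ifng, Krt18, Hrc and Ppara lie within the grey band.

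How much of the Trex1 effect remained with 1 STING allele was read against Trex1 WT hearts of the same STING genotype. On STING +/-, 197 (1.27%) features passed between Trex1 KO and Trex1 WT hearts, 177 (1.14%) higher and 20 (0.129%) lower. On STING +/+, 3378 (21.7%) passed, 1833 (11.8%) higher and 1545 (9.93%) lower. These comparisons share the Trex1 KO arrays with the one above, so the values are only set side by side. Without 1 array the STING +/- count ran from 52 (without Trex1 KO, STING +/- replicate 1) to 318 (without either Trex1 KO, STING +/+ array), and was 55 and 56 without replicates 1 and 2 of Trex1 WT, STING +/-. The STING +/+ count ran from 1659 (without Trex1 WT, STING +/+ replicate 1) to 5168 (without Trex1 KO, STING +/+ replicate 1). The retained rise of a gene is its linear Trex1 KO minus Trex1 WT difference on STING +/- as a percent of that on STING +/+. Over the 1833 features that rose on STING +/+ its median was 15.2%, with 1244 under 25%, 410 at 25% to 50% and 179 at 50% or more. These features were selected on arrays that enter the ratio, so the shares are descriptions.

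The interferon-stimulated genes had a median retained rise above that of all features that rose. On STING +/- 30 of 50 rose with Trex1 loss, and on STING +/+ 47 did, with median differences of 2.09 and 2.96. The 47 genes retained a median of 42.7%, and 17 of them retained 50% or more. The GTPases rose in 8 members on STING +/- and 11 on STING +/+ and retained 38.3%. MHC class I genes rose in 14 and 19 and retained 39.0%. Cell cycle genes, of which 24 rose on STING +/+, retained a median of 43.9%, and genes of cytosolic nucleic acid sensing retained 33.1%. A retained rise of this size was thus not particular to the interferon-stimulated list. Ifi27 retained 96.5% of its rise, B2m 80.6%, Isg15 54.4%, Usp18 50.1%, Irf7 34.2% and Isg20 13.0%. From STING +/- replicates 1 and 2 alone, the share was 103% and 90.1% for Ifi27, 97.7% and 63.5% for B2m, 76.0% and 32.9% for Isg15, 66.6% and 33.5% for Usp18, 48.6% and 19.9% for Irf7 and 16.3% and 9.60% for Isg20, so replicate 1 retained more of each rise. On STING +/-, Trex1 KO hearts still exceeded Trex1 WT hearts by 4.92 in Isg15 (adjusted p = 0.00125), 4.76 in Usp18 (adjusted p = 0.000483) and 4.44 in Irf7 (adjusted p = 0.00193). On STING +/+ the same differences were 5.81, 6.10 and 6.03.

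Of all features 1.14% rose with Trex1 loss on STING +/- and 11.8% on STING +/+. MHC class II genes rose in 0 of 11 members on STING +/- (limma) and in 11 on STING +/+, with medians of 1.26 and 4.07. Their median retained rise was 10.3%, and 11 of the 11 that rose on STING +/+ retained under 25%. Chemokines rose in 5 and 16 of 23 and retained 12.8%, T cell and NK cell markers in 6 and 20 of 24 and retained 12.3%, and macrophage and monocyte markers in 6 and 18 of 23 and retained 19.5%. Some leukocyte genes still passed with 1 STING allele: on STING +/- Cd3d exceeded Trex1 WT by 2.13 (adjusted p = 0.0123), Nkg7 by 2.49 (adjusted p = 0.00622) and Ccl5 by 4.44 (adjusted p = 0.000913). Ifng differed from Trex1 WT by -0.02 (adjusted p = 0.988) on STING +/- and Ifnb1 by 0.05 (adjusted p = 0.969), and neither was detected on a Trex1 KO, STING +/- array.

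**Figure D5:**
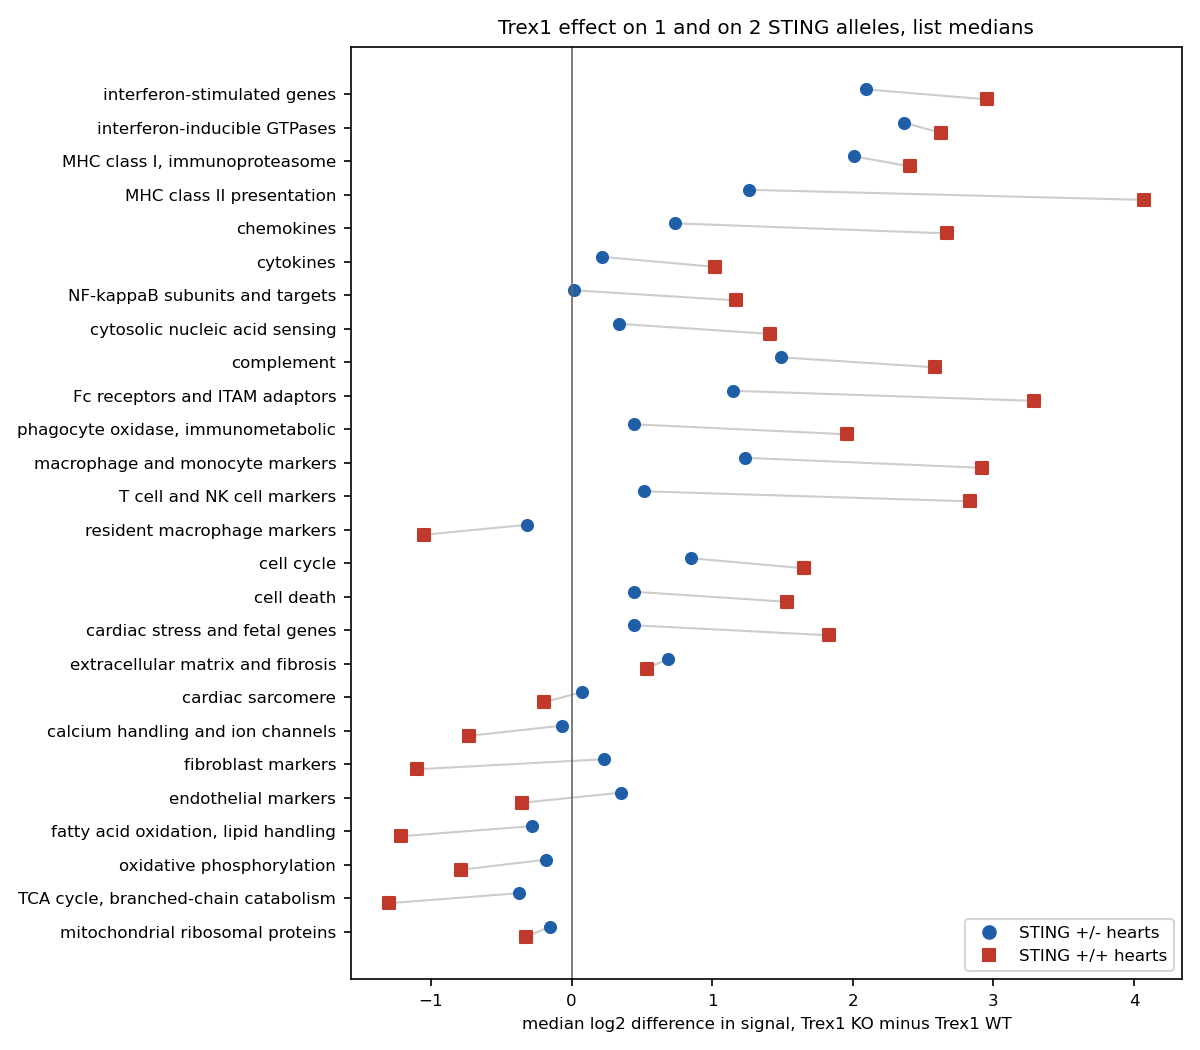
Median log2 difference, Trex1 KO minus Trex1 WT, of 26 gene lists in STING +/- hearts (blue circles) and STING +/+ hearts (red squares). The interferon-stimulated medians are 2.09 on STING +/- and 2.96 on STING +/+, those of MHC class II 1.26 and 4.07, and those of fatty acid oxidation -0.28 and -1.21.

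Lists of metabolism and calcium handling had more genes called lower with Trex1 loss on STING +/+ than on STING +/- (limma). The same held for all features, with 0.129% called lower on STING +/- and 9.93% on STING +/+. At that share a list of this size would hold few or no calls on STING +/-. The difference was not tested list by list. Fatty acid oxidation genes were lower with Trex1 loss in 0 of 39 members on STING +/- and in 23 on STING +/+, genes of the tricarboxylic acid cycle and branched-chain amino acid catabolism in 1 and 25 of 32, oxidative phosphorylation genes in 0 and 26 of 51, and calcium handling genes in 0 and 11 of 28. Hrc differed from Trex1 WT by -0.16 (adjusted p = 0.829) on STING +/- and fell by 2.80 on STING +/+. Ppara differed by 0.03 (adjusted p = 0.99) on STING +/- and fell by 2.50 on STING +/+. Cardiac stress genes rose with Trex1 loss in 2 of 25 members on STING +/- and in 16 on STING +/+. Nmrk2 differed from Trex1 WT by 0.64 (adjusted p = 0.622) on STING +/- and rose by 5.34 on STING +/+, while Sprr1a rose by 1.21 (adjusted p = 0.0271) on STING +/- and by 4.93 on STING +/+. In the unfolded protein response, 1 of 21 members rose with Trex1 loss on STING +/-, which was Ddit3, by 2.45 (adjusted p = 0.000913). The list median there was -0.05. On STING +/+ 8 of its members rose and 1 fell, with a median of 0.20.

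The difference between both Trex1 effects, STING +/- minus STING +/+, was tested directly. It passed in 299 (1.92%) features, 82 (0.527%) of them above and 217 (1.39%) below 0. Without 1 array that count ran from 21 (without Trex1 WT, STING +/+ replicate 1) to 3027 (without Trex1 KO, STING +/+ replicate 1). The difference lay below 0 and passed in 9 of 24 T cell and NK cell markers, 5 of 11 MHC class II genes and 5 of 23 chemokines. Among 50 interferon-stimulated genes it passed in 1, Isg20, at -2.52 ± 0.49 (adjusted p = 0.0336). It was -4.70 ± 0.61 (adjusted p = 0.0118) for Nmrk2, -3.87 ± 0.32 (adjusted p = 0.00227) for Krt18 and -2.84 ± 0.45 (adjusted p = 0.0214) for Cd3e, a chain of the T cell receptor complex chosen after its values were seen. For Ifi27 it was -0.02 ± 0.34 (adjusted p = 0.982), for Isg15 -0.88 ± 0.70 (adjusted p = 0.506) and for Usp18 -1.34 ± 0.51 (adjusted p = 0.187), none of which passed.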

How the data were processed

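Hearts of untreated mice of 6 genotypes, 2 arrays each, were profiled as biotinylated cRNA on Illumina bead arrays, and every array was grouped by its genotype label. The authors deposited probe intensity on a linear scale, without background subtraction or scaling that the values show; the sources used here do not name the scanner software. A detection score beside each intensity is named a detection p per the file headers, but it ran from 0 to 1 and increased with the signal, so 1 minus the score was used as the detection p. The authors' deposited value table is log2 signal centred on each probe's median: on 7997 bright probes it followed quantile-normalised log2 intensities centred the same way, with a Pearson correlation of at least 0.99991 on every array. The sources used here do not say how those values were made.

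Intensities were corrected with normexp, quantile normalised and put on the log2 scale with an offset of 16 (neqc, limma 3.58.1 in R 4.3.3). A probe was kept if its detection p was below 0.05 on 2 or more of the 12 arrays, which left 22810 of 45281. Of all probes 34885 carried 1 gene symbol, 18 several and 10378 none, and the brightest probe stood for a gene. A linear model with 6 group means (6 residual degrees of freedom) was fitted with lmFit and eBayes and tested on simulated data. P-values were adjusted by Benjamini-Hochberg over all 15561 features. Where a group was detected on no array, the fold is a bound: the mean of the brighter group against, per array, the higher of the probe's own signal and the lowest signal among detected probes. Array number and signal above background limit the precision.

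Named genes were the targeted and sex-linked genes, the 15 largest falls and rises whose groups did not overlap and which were detected in the brighter group, predicted genes passed over, and per list up to 4 members with the largest called difference and, for immune lists, as many with the smallest difference; a list with none called gave up to 2 of its brightest members. The members and the 48 lists (1228 genes, 988 measured) were chosen with earlier results of these data known. Promoters come from RefSeq (GRCm38.p6). Alternatives were quantile normalisation without background correction, the authors' values, no filter or a stricter one (detection p below 0.01 on 4 or more arrays), a trended robust variance, array weights, only the arrays compared, the most variable probe of a gene, and leaving out each array. The sources used here name no slides or scan batches.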

Additional observations from a re-analysis of the deposited data

Results flagged for a closer look

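In 48 of the genes named here the Trex1 effect differed between STING genotypes: the difference between Trex1 KO and Trex1 WT on STING +/- minus that on STING +/+ passed an adjusted p of 0.05 over all features (limma), against 1.92% of all features. Values are log2, 34 below 0 and 14 above, with adjusted p from 0.00227 to 0.0492. Many were named for their difference between STING +/- and STING +/+ in Trex1 KO hearts, which shares arrays with this test.

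Of T cell and NK cell genes, the difference was -2.94 for Cd6, -2.84 for Cd3e, -2.82 for Cd3d, -2.81 for Cd3g and -2.77 for the adaptor Lat. It was -2.48 for Nkg7, -2.35 for the kinase Zap70, -2.28 for the costimulatory receptor Cd27, -2.41 for Cxcr3 and -1.82 for Cxcr6. Of cytokines, chemokines and their regulators, it was -3.87 for Ccl7, -3.77 for Ccl4, -3.43 for Ccl3, -2.26 for Ifng, -2.12 for Tnf, -2.24 for Il1rn and -2.65 for Socs3. Of myeloid and antigen-presenting genes, it was -3.41 for Acod1, -3.27 for H2-DMb1, -3.06 for Ctss, -2.11 for Ciita, -2.61 for Chil3, -2.86 for Cd69, -2.30 for Cd40 and -3.16 for Rgs1. Of interferon-induced genes, it was -3.15 for Ifi211, -2.52 for Isg20 and -1.60 for Irgm1. Of stress genes and others, it was -4.70 for Nmrk2, -3.87 for Krt18, -3.73 for Sprr1a, -3.43 for Serpina3f, -3.19 for Slc2a6 and -1.50 for Srxn1.

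Values above 0 were found for genes of heart muscle, metabolism, stroma and resident macrophages among others. The difference was 1.70 for Ivd, 1.82 for Dbt, 2.19 for Slc2a4, 2.53 for Ppara, 2.64 for Hrc, 3.05 for Kcnip2 and 2.47 for Ky. It was 2.00 for Mrc1, 3.17 for F13a1, 3.39 for Scara5, 2.89 for Aqp1, 2.56 for P2ry1, 3.16 for Ces1d and 4.60 for Ephb1.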

How the results depend on the processing

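The count of features past the threshold between STING +/- and STING +/+ hearts, 1713, was 367 with array weights, with 27.2% higher in place of 38.6%, and 6 when only the arrays compared were fitted. It stayed within 1.5 times under the other settings that kept all arrays. The Trex1 effect on STING +/- (197) counted 102 with no filter and 112 with only the arrays compared, and that on STING +/+ (3378) counted 1998 under array weights and 1418 from the compared arrays alone. The difference of both effects (299) counted 194 with no filter, 110 with the stricter filter, 105 under array weights and 23 when the compared arrays alone were fitted. With 1 array left out the counts were 266 to 4102 between STING +/- and STING +/+ hearts, 52 to 318 and 1659 to 5168 for the Trex1 effect on STING +/- and on STING +/+, and 21 to 3027 for their difference; an array left alone in its group was taken to vary like the other groups. Fewer arrays enter these fits and those of the compared arrays alone; for the other settings the cause was not tested. Of 226 named genes 170 passed; of these, 107 no longer passed with array weights, 168 (all but Krt18 and Sprr1a) with only the arrays compared, 37 and 113 without Trex1 KO, STING +/- replicates 1 and 2, 7 without Trex1 KO, STING +/+ replicate 1 and 49 without Trex1 KO, STING +/+ replicate 2. The mitochondrial ribosomal gene Mrpl18 changed direction, to -0.31, when the most variable probe stood for it. No paired analysis was possible because replicate numbers were given in accession order and pair no samples. With 2 arrays a group, the difference of an interferon-stimulated gene that did not pass cannot be read as an equal level, and signals near the highest or lowest on the arrays understate differences.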

Other observations

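Several smaller lists had members that moved in either direction with 1 STING allele. Over all features 6.75% fell and 4.25% rose. Antioxidant enzymes rose in 4 and fell in 4 of 26 members in STING +/- hearts, with a median of -0.04, or -0.26 without STING +/+ replicate 1. Txn1, which encodes thioredoxin, read 8.57 and 8.49 in STING +/- hearts, against 9.64 and 10.58 in STING +/+ hearts, and fell by 1.57 ± 0.35 (adjusted p = 0.019). Srxn1, which repairs oxidised peroxiredoxins, read 8.12 and 8.06 in STING +/- hearts, against 9.37 and 9.39 in STING +/+ hearts, and fell by 1.30 ± 0.23 (adjusted p = 0.00793). Hmox1, which breaks down haem, fell by 1.17 ± 0.25 (adjusted p = 0.0176), while Prdx3, the peroxiredoxin of mitochondria, read 11.71 and 11.63 in STING +/- hearts, against 10.75 and 10.01 in STING +/+ hearts, and rose by 1.29 ± 0.26 (adjusted p = 0.0128). The groups did not overlap in Txn1, Srxn1 or Prdx3. Without STING +/- replicates 1 and 2 the list had 0 and 0 rises (limma) and 2 and 0 falls, and without STING +/+ replicate 2 it had 1 rise.

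DNA damage and p53 target genes fell in 3 of 19 members and rose in 2, against 6.75% and 4.25% of all features. Counts in this list and the others here are small, so they are not read as results about the lists. Cdkn2b, an inhibitor of cyclin-dependent kinases, read 5.89 and 5.00 in STING +/- hearts, against 7.79 and 8.63 in STING +/+ hearts, and fell by 2.77 ± 0.44 (adjusted p = 0.00503), while Sesn1, a sestrin that p53 induces, read 11.56 and 12.53 in STING +/- hearts, against 10.35 and 10.62 in STING +/+ hearts, and rose by 1.56 ± 0.34 (adjusted p = 0.0189). Both were without overlap. Immediate early genes fell in 3 of 22 members and rose in 0, among them the AP-1 subunit Junb by 1.72 ± 0.43. Smooth muscle and pericyte markers rose in 2 and fell in 1 of 17. Acta2, the actin of smooth muscle and myofibroblasts, read 12.15 and 12.30 in STING +/- hearts, against 13.30 and 13.64 in STING +/+ hearts, and fell by 1.25 ± 0.22 (adjusted p = 0.0086), whereas Abcc9, a potassium channel subunit of pericytes and heart muscle, read 9.80 and 9.77 in STING +/- hearts, against 8.16 and 7.26 in STING +/+ hearts, and rose by 2.08 ± 0.40 (adjusted p = 0.0106). Erythroid markers rose in 1 of 7 members, with summed signals of 77919 and 88108 in STING +/- hearts, against 65816 and 30769 in STING +/+ hearts. Without STING +/- replicate 2 limma called 0 p53 target genes lower and 0 higher, 1 immediate early gene lower and 0 smooth muscle markers higher, and without STING +/+ replicate 2 it called 1 immediate early gene lower. No hypothesis was tested on these values.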
